A study of Mus musculus with 5 samples.

Results

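The genes described here are 9 genes of axon injury and regeneration, Atf3, Jun, Sox11, Sprr1a, Gap43, Ecel1, Klf6, Stmn2 and Tubb3. They were taken by gene symbol from a table of 25655 genes, and all 9 were found in it. RNA of the whole injured retina was sequenced 7 days after optic nerve crush (ONC), an injury in which the optic nerve is pinched behind the eye, in wildtype C57BL/6 mice that were 8 to 10 weeks old at ONC. There were 3 retinas of mice given DMSO, the vehicle (replicates 1, 2 and 3), and 2 of mice given Sorbinil at 10 mg/kg, an inhibitor of aldose reductase (replicates 1 and 3). The left optic nerve was crushed, and the intraperitoneal injections started 24 h before ONC and were repeated daily. Sorbinil replicate 2 was not analysed here. Every retina in the comparison was crushed, so the values compare Sorbinil with DMSO after injury and do not measure what ONC itself changed.

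Retinal ganglion cells (RGCs) are the only neurons whose axons leave the eye, and ONC cuts these axons off from the brain. The damage signal travels to the cell body through the kinase DLK and its effector JNK. JNK activates Jun, which pairs with partners such as Atf3 in the AP-1 family of transcription factors, and the injured neuron then turns on genes for stress, cell death and growth. Of the 9 genes, Atf3, Jun, Klf6 and Sox11 encode transcription factors, Sprr1a and Ecel1 encode proteins induced in damaged neurons, and Gap43, Stmn2 and Tubb3 encode proteins of the growth cone and axon. In a whole retina these transcripts come from RGCs and, for several of the genes, from other cells too.

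None of the 9 genes was called different between Sorbinil and DMSO retinas. The rule for a call was a 2-fold or larger change with an unadjusted p-value up to 0.1, used here in both directions. The study words the rule for lower genes, although the differentially expressed genes it reports were not all lower. Of all 14992 genes tested, 1.35% were called lower and 0.36% higher by this rule. The fitted log2 fold changes ran from -0.72 for Ecel1 to 0.03 for Klf6, and 8 of the 9 were below 0, compared to 51.0% of all genes tested. The median of the 9 was -0.31, against -0.008 over all genes tested. All 9 passed the filter on low counts. No gene of the 9 had an unadjusted p-value under 0.05, where 5.01% of all genes did, and 0 of the 14992 genes (0.0%) passed 0.05 after adjustment in edgeR's quasi-likelihood test, the test behind every p below that is not called a permutation test. The log2 gap within the Sorbinil pair was wider than the fitted difference between the groups for all but Atf3 and Tubb3. In Sorbinil replicate 1, 7 of the 9 genes were below every DMSO retina (41.7% of all genes tested were), while in Sorbinil replicate 3 only Tubb3 was (29.1% of all genes tested) and the other 8 were within the DMSO range.

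**Figure D1:**
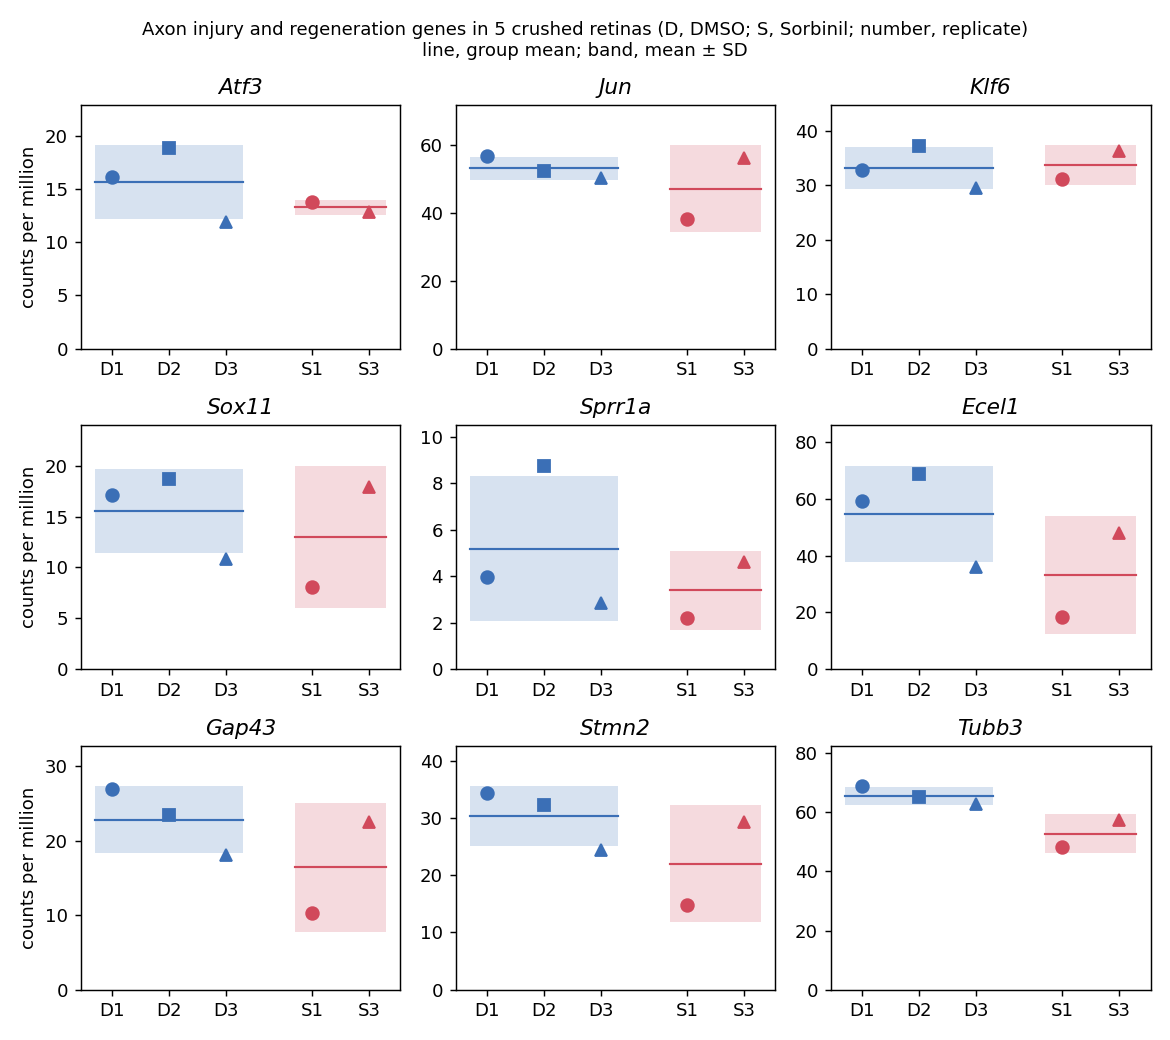
Counts per 1000000 counts (CPM, y axis, starting at 0) of each of the 9 genes in the 3 DMSO retinas (blue) and 2 Sorbinil retinas (red), 1 point per retina, with the group mean as a line and ± SD as a band. Sorbinil replicate 1 (S1) is the lowest point for 7 genes and lies within the DMSO range for Atf3 and Klf6, and Tubb3 is the gene whose groups do not overlap.

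Counts on genes totalled between 56096541 and 90288552 per retina, and the total of Sorbinil replicate 1, 61577775, was within that range. The tissue label held, since the rod gene Gnat1 was among the most counted genes. Sorbinil replicate 1 stood apart from the other 4 retinas. Its median log2 ratio to the DMSO mean was -1.11 for 20 RGC genes, -1.41 for 13 amacrine cell genes and -1.43 for 13 Müller glia genes, and 0.56 for 15 rod genes. In Sorbinil replicate 3 the same lists had medians of -0.07, 0.07, 0.03 and -0.32. DMSO replicate 3 and Sorbinil replicate 3 held lens transcripts, with summed levels of 63.2 and 40.2 CPM over 11 lens genes, against 1.79 to 3.77 CPM in the other retinas. In a bulk sample fewer cells of a type and less RNA per cell cannot be told apart. Each of the 9 genes is therefore also given without each Sorbinil retina, and the part of cell makeup in the values was not tested.

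The promoter sequences of the members are shown first because Jun and Atf3 are themselves factors that bind AP-1 and CRE-type DNA elements. RefSeq promoters were found for 7 of the 9 genes, Gap43 and Stmn2 having none in the table, and the 250 bases before each transcription start were searched on both strands for 3 motifs. These were the AP-1 element TGANTCA, the CRE-type element TGACNTCA and the C/EBP-ATF response element TGATGNAA, which do not overlap each other in the matches found. An AP-1 element was present in 1 of the 7 promoters (6.75% of 32851 promoters in the table hold one), a CRE-type element in 4 (7.49%) and a C/EBP-ATF response element in 2 (3.45%). Sprr1a held 2 AP-1 elements, 116 and 146 bases before the start, and a CRE-type element 207 bases before it. Jun, Sox11 and Klf6 held a CRE-type element 45, 42 and 119 bases before the start. Atf3 and Tubb3 held a C/EBP-ATF response element 110 and 62 bases before the start, and Ecel1 held none of the 3 motifs. Of the 250 bases, 129 for Tubb3 and 165 for Ecel1 lie in annotated GENCODE exons, and the Tubb3 match lies past the GENCODE gene start, so these windows are partly transcribed sequence. A match is a description of these letters and does not show that a factor binds there.

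The 5 promoters with matches in genes for transcription factors and in Sprr1a are printed 5′ to 3′ on the strand of the gene, with the motif matches in capitals. The table gives them on GRCm38.p6, and each was matched exactly, at a single place, to GRCm39. On GRCm39 the printed windows are chr3:92393189-92393438 (minus strand) for Sprr1a, chr4:94940460-94940709 (minus) for Jun, chr12:27392718-27392967 (minus) for Sox11, chr13:5911238-5911487 (plus) for Klf6 and chr1:190915531-190915780 (minus) for Atf3. The Atf3 window lies within the GENCODE gene, whose longer transcripts start further upstream, and 7 of its bases are in an annotated exon.
Sprr1a: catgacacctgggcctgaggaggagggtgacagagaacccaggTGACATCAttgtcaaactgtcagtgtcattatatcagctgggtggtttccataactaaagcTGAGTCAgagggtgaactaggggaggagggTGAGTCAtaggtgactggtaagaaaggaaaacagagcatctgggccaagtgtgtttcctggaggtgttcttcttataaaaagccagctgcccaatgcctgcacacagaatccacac
Jun: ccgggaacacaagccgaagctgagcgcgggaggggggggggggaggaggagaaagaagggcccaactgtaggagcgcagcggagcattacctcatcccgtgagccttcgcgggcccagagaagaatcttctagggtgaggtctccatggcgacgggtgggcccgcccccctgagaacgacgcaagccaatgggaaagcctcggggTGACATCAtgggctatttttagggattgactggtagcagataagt
Sox11: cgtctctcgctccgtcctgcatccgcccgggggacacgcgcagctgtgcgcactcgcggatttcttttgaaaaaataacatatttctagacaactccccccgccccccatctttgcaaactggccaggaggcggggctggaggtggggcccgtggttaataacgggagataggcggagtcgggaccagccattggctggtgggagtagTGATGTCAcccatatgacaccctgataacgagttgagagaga
Klf6: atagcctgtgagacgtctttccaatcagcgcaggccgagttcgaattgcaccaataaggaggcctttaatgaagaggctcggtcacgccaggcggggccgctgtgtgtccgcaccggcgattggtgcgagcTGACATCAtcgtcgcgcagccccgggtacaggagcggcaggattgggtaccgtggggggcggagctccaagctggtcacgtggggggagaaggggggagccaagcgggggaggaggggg
Atf3: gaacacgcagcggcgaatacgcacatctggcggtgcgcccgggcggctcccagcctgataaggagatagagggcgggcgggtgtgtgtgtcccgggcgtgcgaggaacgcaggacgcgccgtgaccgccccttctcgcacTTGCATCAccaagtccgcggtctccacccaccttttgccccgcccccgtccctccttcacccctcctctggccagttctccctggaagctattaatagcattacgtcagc

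Of the transcription factors, Atf3 and Klf6 were within the DMSO range in both Sorbinil retinas. Atf3 (ENSMUSG00000026628), a stress-induced partner of Jun, lies on the minus strand of chromosome 1 from 190902493 to 190950241 (GRCm39, GENCODE vM39, as for all genes here). It measured 16.1, 18.9 and 11.97 CPM in DMSO replicates 1, 2 and 3, and 13.8 and 12.8 CPM in Sorbinil replicates 1 and 3. Both Sorbinil retinas lay between DMSO replicates 1 and 3. Atf3 averaged 15.7 ± 3.48 CPM with DMSO (SD, n = 3) and 13.3 ± 0.706 CPM with Sorbinil (SD, n = 2). For Atf3 the fitted log2 fold change was -0.23 (standard error 0.22, 95% interval -0.78 to 0.31, unadjusted p = 0.333, adjusted p = 0.761, edgeR's quasi-likelihood test). Leaving out either Sorbinil retina moved it little, to -0.28 (replicate 1 out) or -0.18 (replicate 3 out), while it was -0.08 with DMSO replicate 2 left out.

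Klf6 (ENSMUSG00000000078), a zinc-finger factor that promotes axon growth, is on chromosome 13 (plus strand, 5911481 to 5920393). It measured 32.7, 37.1 and 29.5 CPM in the DMSO retinas and 31.2 and 36.3 CPM in Sorbinil replicates 1 and 3. All 5 values were between 29.5 and 37.1 CPM and the groups overlapped fully. Its log2 fold change of 0.03 (standard error 0.15, interval -0.35 to 0.40) had unadjusted p = 0.867 (edgeR), and the interval lay inside a 2-fold change in either direction. The sign was not stable, with -0.06 when scaled to library size only, -0.05 without DMSO replicate 3, -0.09 without Sorbinil replicate 3 and 0.14 without Sorbinil replicate 1.

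Jun (ENSMUSG00000052684), the JNK-activated subunit of AP-1, lies on the minus strand of chromosome 4 from 94937271 to 94940459. The DMSO retinas were close together at 56.7, 52.2 and 50.3 CPM. Sorbinil replicate 3 was within them at 56.1 CPM, and Sorbinil replicate 1 was below them at 38.0 CPM. Jun had a fitted log2 fold change of -0.17 (standard error 0.19, interval -0.64 to 0.29, unadjusted p = 0.395, edgeR's quasi-likelihood test). Its direction rested on 1 retina, since it was 0.09 with Sorbinil replicate 1 left out and -0.48 with replicate 3 left out. A long noncoding RNA gene covers the whole of Jun on the opposite strand. The labels give a stranded kit, but whether strand was used in counting is unknown, so the 2 genes' reads may not be separated.

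Sox11 (ENSMUSG00000063632), an HMG-box factor that promotes axon growth in some RGC types, lies on the minus strand of chromosome 12 from 27384263 to 27392573. It spread more than the other factors, with 17.2, 18.7 and 10.9 CPM in the DMSO retinas, 8.05 CPM in Sorbinil replicate 1 and 17.9 CPM in Sorbinil replicate 3. Sorbinil replicate 3 was thus near the upper DMSO values and Sorbinil replicate 1 below the lowest. The fitted value of -0.26 log2 (standard error 0.40, interval -1.25 to 0.73, unadjusted p = 0.542, edgeR's quasi-likelihood test) turned to 0.21 with Sorbinil replicate 1 left out and to -0.95 with replicate 3 left out.

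The damage-induced proteins had the widest spread. Ecel1 (ENSMUSG00000026247), a membrane metalloprotease that neurons induce after axon damage, lies on the minus strand of chromosome 1 from 87075377 to 87084243. It measured 59.5, 68.8 and 35.9 CPM with DMSO, 18.5 CPM in Sorbinil replicate 1 and 48.0 CPM in Sorbinil replicate 3. Sorbinil replicate 1 was 2.60-fold below the other Sorbinil retina, while the DMSO retinas differed among themselves by up to 1.92-fold. Ecel1 averaged 54.7 ± 17.0 CPM with DMSO (SD, n = 3) and 33.2 ± 20.9 CPM with Sorbinil (SD, n = 2). Its log2 fold change of -0.72 was the largest of the 9 but had a standard error of 0.47 and an interval of -1.87 to 0.44 (unadjusted p = 0.176, adjusted p = 0.758, edgeR's quasi-likelihood test). With Sorbinil replicate 1 left out it shrank to -0.18, and with replicate 3 left out it was -1.57. A pair of long noncoding RNA genes overlap Ecel1 on the opposite strand, with the same limit as for Jun.

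Sprr1a (ENSMUSG00000050359), a small proline-rich protein of the epidermal envelope that axotomised neurons also make, lies on the minus strand of chromosome 3 from 92390424 to 92393208. It had the fewest counts of the 9 genes, with 385, 700 and 158 counts in the DMSO retinas, 115 in Sorbinil replicate 1 and 312 in Sorbinil replicate 3. These were 3.98, 8.76 and 2.84 CPM with DMSO and 2.19 and 4.60 CPM with Sorbinil. The DMSO retinas alone spanned 3.08-fold, with DMSO replicate 2 highest. Its fitted difference was -0.61 log2 (standard error 0.58, interval -2.04 to 0.82, unadjusted p = 0.331, edgeR's quasi-likelihood test). Leaving out DMSO replicate 2 brought it to -0.008 and leaving out Sorbinil replicate 1 to -0.17, so both retinas bore on it. It was -1.25 with Sorbinil replicate 3 left out. Sprr1b, a close relative of Sprr1a, had 0 counts in every retina, as did the epidermal genes Ivl and Sprr3. Krt14 had 0 to 20 counts. Sprr1b, Ivl, Sprr3 and Krt14 were the genes of a cornea, conjunctiva and epidermis list of 17 that did not pass the filter on low counts. The 13 that passed it ranged from Krt4, with 1 to 17 counts, to Perp, with 83 to 247 counts. Their sum was 6.24 to 14.8 CPM. It was highest in DMSO replicate 3 and Sorbinil replicate 3, not in DMSO replicate 2 where Sprr1a was highest.

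The growth cone genes Gap43 and Stmn2 moved closely together. Gap43 (ENSMUSG00000047261), a membrane-bound phosphoprotein of growth cones, lies on the minus strand of chromosome 16 from 42068805 to 42161086. It measured 26.9, 23.5 and 18.0 CPM with DMSO, 10.3 CPM in Sorbinil replicate 1 and 22.6 CPM in Sorbinil replicate 3. Sorbinil replicate 3 was between the DMSO values and Sorbinil replicate 1 below all of them. Gap43 had a fitted log2 fold change of -0.47 (standard error 0.36, interval -1.37 to 0.43, unadjusted p = 0.243, edgeR's quasi-likelihood test). With Sorbinil replicate 1 left out it was -0.007, against -1.15 with replicate 3 left out. The Gap43 locus also holds a noncoding transcript on the opposite strand.

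Stmn2 (ENSMUSG00000027500), a stathmin that destabilises microtubules in growing axons and a substrate of JNK, is on chromosome 3 (plus strand, 8574151 to 8626667). It measured 34.3, 32.2 and 24.4 CPM with DMSO and 14.8 and 29.3 CPM in Sorbinil replicates 1 and 3, with the same placing of the Sorbinil retinas as for Gap43. At -0.46 log2 (standard error 0.32, interval -1.25 to 0.33, unadjusted p = 0.203, edgeR's quasi-likelihood test) its fitted difference was close to that of Gap43, and it too rested on Sorbinil replicate 1 (-0.04 with it left out, -1.04 with replicate 3 left out).

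Tubb3 (ENSMUSG00000062380) encodes βIII-tubulin, the neuronal tubulin used to stain axons, and is on chromosome 8 (plus strand, 124138163 to 124150092). It was the steadiest of the 9 genes in the DMSO retinas, at 68.7, 65.3 and 62.7 CPM, and measured 48.2 and 57.4 CPM in Sorbinil replicates 1 and 3. Both Sorbinil retinas were below every DMSO retina, by a margin that was small in Sorbinil replicate 3. This separation was found for 1 of the 9 genes, against 10.5% of all genes tested, and no gene of the 9 was separated upwards, against 12.8%. Tubb3 averaged 65.6 ± 3.04 CPM with DMSO (SD, n = 3) and 52.8 ± 6.53 CPM with Sorbinil (SD, n = 2). Its log2 fold change of -0.31 (standard error 0.13, interval -0.63 to 0.006) was under the 2-fold limit, with unadjusted p = 0.0530 and an adjusted p of 0.758 (edgeR). A lower level with an unadjusted p-value up to 0.1, at any fold, was reached by Tubb3 alone of the 9, and by 4.33% of all genes tested. The exact permutation test over all 10 groupings of the 5 retinas gave p = 0.1 (two-sided), the smallest p that 2 against 3 retinas allow. The log2 fold change stayed below 0 when either Sorbinil retina was left out, at -0.18 (replicate 1 out) and -0.44 (replicate 3 out). Tubb3 has near-identical stretches in other β-tubulin genes, and how reads that fit several genes were counted is unknown.

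**Figure D2:**
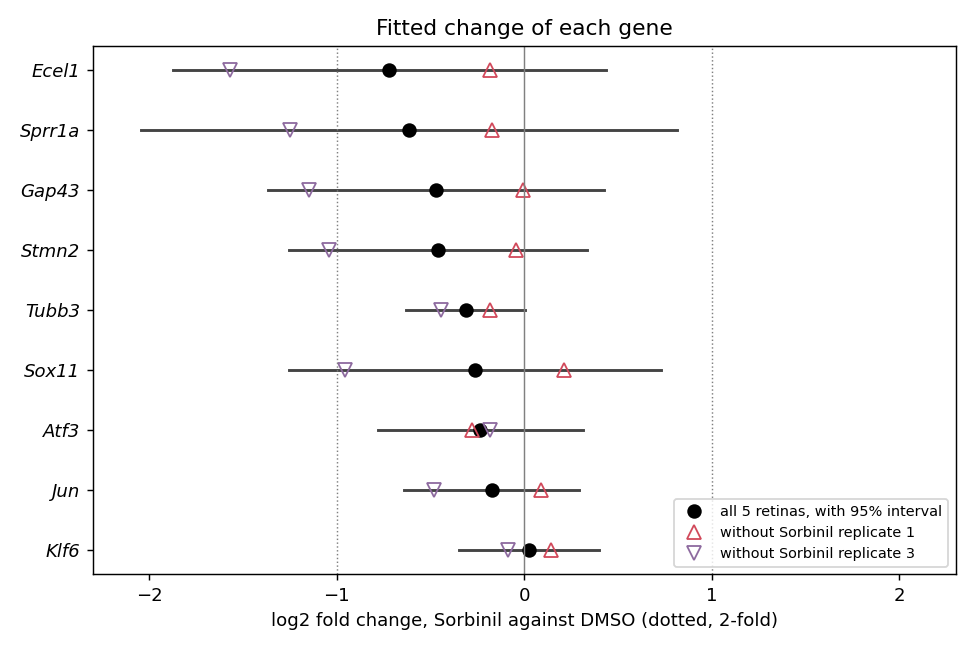
Log2 fold change of Sorbinil against DMSO for each gene (x axis), with the fit on all 5 retinas as a black point and its 95% interval as a bar, and the fits without Sorbinil replicate 1 or 3 as open triangles. All 9 intervals reach across 0, that of Tubb3 only to 0.006, and Atf3, Klf6 and Tubb3 have the shortest distances between the open triangles.

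Per kilobase of annotated exon, the order of level was the same in 3 of 5 retinas, with Gap43 and Ecel1 exchanged in DMSO replicate 2 and a larger change in Sorbinil replicate 1. There, Klf6 at 6.98 and Atf3 at 5.67 CPM per kilobase were above Gap43 at 5.44 and Ecel1 at 4.04. Tubb3 was highest, with a mean of 18.8 CPM per kilobase over the 5 retinas (15.0 to 21.4), followed by Jun at 15.9 (11.9 to 17.8). Gap43 at 10.7 and Ecel1 at 10.1 came next by their means, then Klf6 at 7.47 and Atf3 at 6.03, and these 4 genes do not stand apart beyond their spread over the retinas. Stmn2 at 4.67, Sprr1a at 2.72 and Sox11 at 1.75 followed, in this order in 5 of 5 retinas. Exon lengths are the union over transcripts, and a retina using shorter transcripts would have higher levels per kilobase than given.

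Among the DMSO retinas, replicate 3 was the lowest for all 9 genes, from 1.10-fold below the highest DMSO retina for Tubb3 to 3.08-fold for Sprr1a. DMSO replicate 3 was also lowest of the DMSO retinas for the median of the RGC list, at -0.28 log2 against the DMSO mean, compared to 0.17 and 0.14 in replicates 1 and 2. It was also the retina with the most lens transcript and the most pigment epithelium transcript. The summed level of 10 pigment epithelium genes was 276 CPM there, against 94.9 to 158 CPM in the other retinas. The part of either in these values was not tested. The summed level of the 9 genes was 316, 325 and 246 CPM in the DMSO retinas, 185 CPM in Sorbinil replicate 1 and 285 CPM in Sorbinil replicate 3. Sorbinil replicate 3 therefore lay inside the DMSO range of the sum.

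To see which of the genes followed the RGC markers, each gene was set against the median log2 ratio of 20 RGC genes that include none of the 9. This comparison was added after the values were seen. Gap43 and Stmn2 followed the list in all 5 retinas. Relative to it, Gap43 was at 0.10, -0.07 and -0.03 log2 in the DMSO retinas, -0.003 in Sorbinil replicate 1 and 0.09 in Sorbinil replicate 3. Stmn2 was at 0.03, -0.03 and -0.004 with DMSO and 0.10 and 0.05 with Sorbinil. Sprr1a was at 0.04 and 0.07 in the Sorbinil retinas, inside a DMSO range of -0.41 to 0.79.

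Atf3, Klf6, Jun and Tubb3 were higher relative to the RGC list in Sorbinil replicate 1 than in any other retina. Relative to the list they were at 0.97, 1.04, 0.64 and 0.68 log2 in that retina, above DMSO ranges whose highest values were 0.17, 0.13, 0.21 and 0.23. In Sorbinil replicate 3 they were at -0.18, 0.22, 0.16 and -0.11. Klf6 alone of these 4 was above every DMSO retina in both Sorbinil retinas (exact permutation test, two-sided, p = 0.1, the smallest possible). Ecel1 was at -0.39 and -0.06 in Sorbinil replicates 1 and 3, against -0.26 to 0.25 with DMSO, and so was lower relative to the list in Sorbinil replicate 1 than in any DMSO retina. Sox11 was at 0.21 and 0.33 with Sorbinil, against -0.19 to 0.17 with DMSO, so that Sox11, like Stmn2, was also above every DMSO retina in both (exact permutation p = 0.2 each, two-sided). On this scale 15.1% of all genes tested were above every DMSO retina in both Sorbinil retinas. The median of all genes tested was at 1.14 in Sorbinil replicate 1, above each of the 9 genes, and at 0.07 in Sorbinil replicate 3. In a fit scaled to the RGC list, the log2 fold change was 0.54 for Atf3, 0.73 for Klf6 and 0.46 for Jun, with adjusted p-values of 0.329, 0.267 and 0.401 (edgeR), while the median over all genes tested was itself shifted to 0.72.

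**Figure D3:**
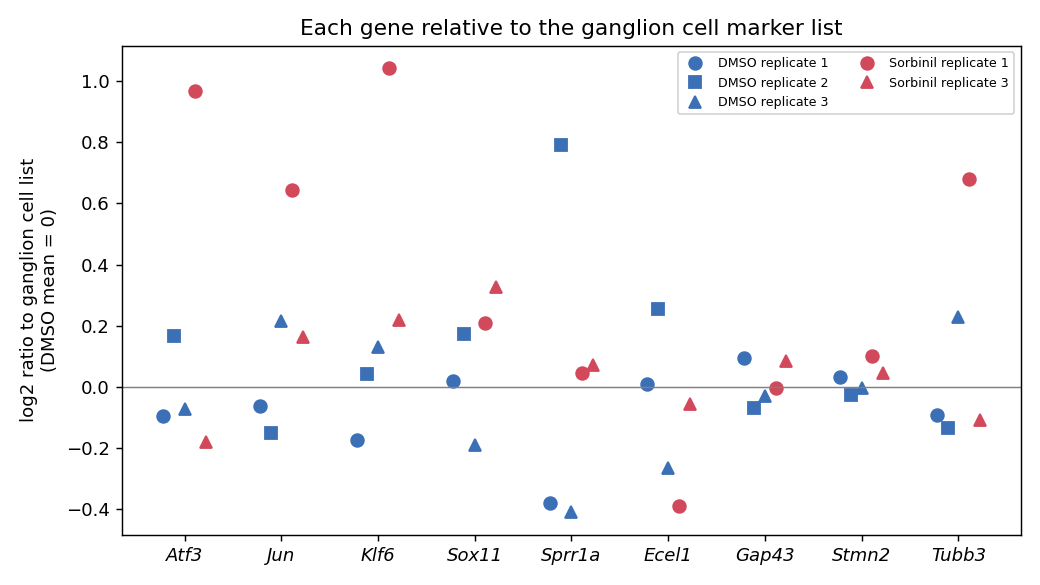
Log2 ratio of each gene to the median of the 20 RGC genes, set to 0 at the DMSO mean (y axis), by gene (x axis) and retina (points, blue for DMSO and red for Sorbinil). Gap43 and Stmn2 stay within 0.10 of 0 in all retinas, while Atf3, Klf6, Jun and Tubb3 stand 0.64 to 1.04 above in Sorbinil replicate 1.

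The tested genes whose log2 CPM over the 5 retinas lay nearest to each member were found by the root-mean-square (RMS) difference of values centred on their mean. Genes with symbols of Gm followed by digits, or ending in Rik, were left out of this search. The closest of the many remaining genes over only 5 retinas are given as a description, with no test. Stmn2 was nearest to Atf5, a stress-responsive relative of Atf4 (RMS difference 0.011 log2), and to Chrd (0.025). Gap43 was nearest to Lrp5 and Myo1c (0.021 and 0.023), and among the other members to Stmn2 (0.060). Ecel1 was nearest to Spp1, which encodes osteopontin and marks alpha-type RGCs and some activated macrophages, at 0.040, followed by Ly6e at 0.057. Spp1 measured 17.7, 19.1 and 10.1 CPM with DMSO and 5.44 and 13.7 CPM with Sorbinil, the same order of retinas as Ecel1.

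Sprr1a was nearest to Clec4a3 and Ifi204, both expressed in myeloid cells, at 0.108 and 0.110 log2. Clec4a3 was barely counted, at 0.114, 0.313 and 0.0900 CPM with DMSO and 0.0571 and 0.177 CPM with Sorbinil. Ifi204 measured 0.889, 1.86 and 0.594 CPM with DMSO and 0.552 and 0.958 CPM with Sorbinil, likewise with DMSO replicate 2 highest. The microglia and macrophage list of 16 genes was also highest in DMSO replicate 2, with a median of 0.31 log2 against the DMSO mean, compared to -0.35 in replicate 3. So were the list of astrocytes and reactive macroglia, at 0.17, and that of other injury-induced neuronal genes, at 0.15. This peak was therefore not particular to myeloid genes, and the part of any of these lists in the Sprr1a values was not tested. Atf3 was near to Inpp5d (0.059), Klf6 to Eogt and Mlxip (0.027 and 0.035), Sox11 to Clgn and Tent5c (0.046 and 0.062), Jun to Usp22 and Crtc1 (0.011 and 0.024), and Tubb3 to Cdin1 and Gstm4 (0.018 and 0.019).

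Other genes of the injury response were taken from fixed lists. Of 22 DLK-JNK pathway and AP-1 genes tested, none was called in either direction, and the median log2 fold change was 0.13. At an unadjusted p-value under 0.05, 1 was lower and 1 higher, against 5.01% of all genes tested in either direction. Jund, another AP-1 subunit, measured 148, 123 and 127 CPM with DMSO and 95.4 and 104 CPM with Sorbinil (log2 fold change -0.42, unadjusted p = 0.0235, adjusted p = 0.758). Map3k13, which encodes the DLK relative LZK, measured 61.3, 63.6 and 49.1 CPM with DMSO and 75.7 and 73.8 CPM with Sorbinil (log2 fold change 0.37, unadjusted p = 0.0492, adjusted p = 0.758). Neither reached a 2-fold change. In this list both Sorbinil retinas were below every DMSO retina for 1 gene and above every DMSO retina for 6 of the 22, against 10.5% and 12.8% of all genes tested. The AP-1 gene Fosb was at 2.61, 2.73 and 2.32 CPM with DMSO and 5.33 and 3.03 CPM with Sorbinil (log2 fold change 0.71, unadjusted p = 0.0569). Its value rested on Sorbinil replicate 1, at 0.26 with that retina left out and 1.06 with replicate 3 left out.

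Of 25 other regeneration transcription factors tested, 1 was called lower, Klf4, a Krüppel-like factor that limits axon growth and is also active in endothelium (log2 fold change -1.15, unadjusted p = 0.0487, adjusted p = 0.758, edgeR's quasi-likelihood test). With DMSO replicate 1 or 2 left out the log2 fold change was -1.13 and -1.10 but the call was lost (unadjusted p = 0.111 and 0.115, edgeR's quasi-likelihood test), and with Sorbinil replicate 1 left out the log2 fold change itself shrank to -0.62. Klf4 measured 1.27, 1.31 and 1.12 CPM with DMSO and 0.304 and 0.796 CPM with Sorbinil. The list's median was -0.06. Smad5 and Creb1 had log2 fold changes of 0.41 and 0.55 with unadjusted p-values of 0.0356 and 0.0428, which became 0.24 and 0.19 (unadjusted p-values 0.0919 and 0.139) with Sorbinil replicate 1 left out. Klf6 was level and Klf4 lower here, and the difference between them was not tested. Klf4 was named because it was called, and it does not stand for the other Krüppel-like factors of the list.

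Of 29 growth cone and cytoskeleton genes tested, none was called, 25 had a log2 fold change below 0 and the median was -0.39. With Sorbinil replicate 1 left out the median was -0.03, and with replicate 3 left out -1.03. Stmn3, a stathmin like Stmn2, measured 98.8, 87.6 and 85.7 CPM with DMSO and 59.9 and 73.1 CPM with Sorbinil (log2 fold change -0.45, unadjusted p = 0.0222). Map1b, a microtubule-associated protein of growing axons, had the opposite direction, with 1234, 1456 and 1506 CPM with DMSO and 2711 and 1870 CPM with Sorbinil (log2 fold change 0.71, unadjusted p = 0.0233). Dpysl4 was at a log2 fold change of -0.66 (unadjusted p = 0.0759), and all 3 had an adjusted p-value of 0.758. With Sorbinil replicate 1 left out, Map1b was at 0.43, Dpysl4 at -0.26 and Stmn3 at -0.30.

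Of 30 other injury-induced genes tested, 1 was called lower and the median was -0.42, which became -0.03 without Sorbinil replicate 1. The called gene was Serpina3n, a protease inhibitor of reactive glia, at 30.9, 54.3 and 20.4 CPM with DMSO and 10.2 and 17.9 CPM with Sorbinil (log2 fold change -1.32, unadjusted p = 0.0334, adjusted p = 0.758, edgeR's quasi-likelihood test). With DMSO replicate 2 or Sorbinil replicate 1 left out it was -0.87 and -0.96, short of 2-fold. The macrophage metalloprotease Mmp12 had a log2 fold change of -0.71, with an unadjusted p-value of 0.0778 (-0.48 with Sorbinil replicate 1 left out). Of 23 genes that brake axon growth or carry out axon degeneration, none was called and the median was 0.01. In that list 4 genes were higher and 0 lower at an unadjusted p-value under 0.05, which 5.01% of all genes tested reached in either direction. Among the 4 were Plxna2, a semaphorin co-receptor, and Mycbp2, a ubiquitin ligase of axon degeneration. These had log2 fold changes of 0.45 and 0.37, and adjusted p-values of 0.758. Leaving out either Sorbinil retina changed this count, so it was not stable. The median of the list stayed small, at 0.03 with Sorbinil replicate 1 left out and 0.06 with replicate 3 left out. Plxna2 and Mycbp2 were at 0.22 and 0.28 with Sorbinil replicate 1 left out.

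**Figure D4:**
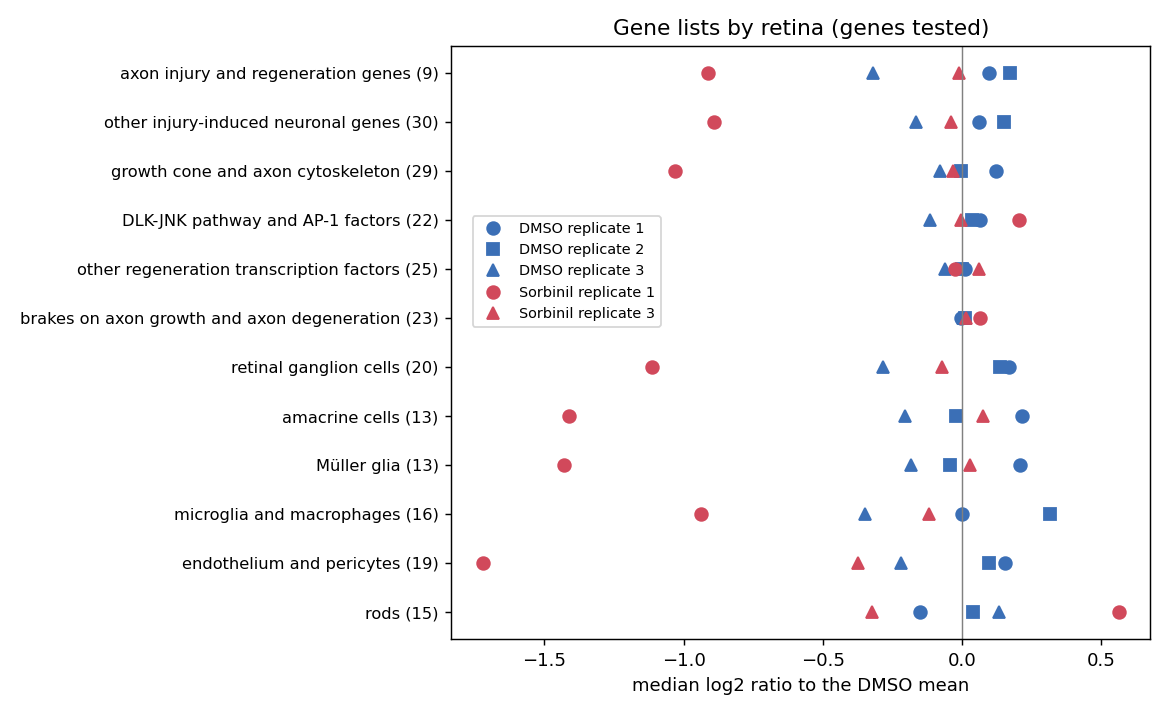
Median log2 ratio to the DMSO mean (x axis) of each gene list, with the number of genes tested in brackets, in every retina (blue DMSO, red Sorbinil). Sorbinil replicate 1 is at -0.91 for the 9 axon injury genes and at -1.11 for the RGC list, while Sorbinil replicate 3 is at -0.01 and -0.07, and the lists of DLK-JNK genes, regeneration factors and growth brakes lie near 0 in all 5 retinas, the farthest being 0.20 for DLK-JNK genes in Sorbinil replicate 1.

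The 20 RGC genes are a marker list and do not measure RGC transcript alone, since Isl1 is also in a bipolar cell marker list. They were at a median of -0.52 log2, and 1 was called lower, the melanopsin gene Opn4 (log2 fold change -1.11, unadjusted p = 0.0828, edgeR's quasi-likelihood test). This call was lost when any retina but Sorbinil replicate 3 was left out. The median of the 20 RGC genes moved to -0.07 with Sorbinil replicate 1 left out and to -1.15 with replicate 3 left out, against -0.04 and -0.95 for the 9 axon injury genes. Of the defining RGC genes, Pou4f1 measured 2.93, 2.91 and 2.02 CPM with DMSO and 0.742 and 2.12 CPM with Sorbinil. Rbpms2, also a defining gene, was inside the DMSO range in Sorbinil replicate 1, at 2.40 CPM against 2.23 to 3.14 CPM. Jam2, a gene of the list that is not among the defining ones, was highest there, at 152 CPM against 100 to 116 CPM. Sorbinil replicate 1 was lowest and DMSO replicate 3 second lowest for the medians of the 9 genes and of the RGC list, and also for those of the amacrine, Müller glia, astrocyte and microglia lists, so this placing was not particular to RGC genes. The endothelium and pericyte list was the list with the most calls, with 7 of 19 genes called lower (1.35% of all genes tested) and a median of -0.79. Its median was -0.39 with Sorbinil replicate 1 left out. In Sorbinil replicate 3 its median of -0.37 against the DMSO mean was below that of every DMSO retina. That of the 9 axon injury genes, at -0.01, was not.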

How the data were processed

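Whole-number counts per gene symbol for 5 injured retinas were used. The authors trimmed adaptors and aligned to GRCm39 in CLC Genomics Workbench v22 at its defaults, and deposited total counts without normalization. The annotation release and the use of strand are not given in the sources used here, and the labels and the paper name different total RNA kits with 100 ng and at least 1 μg of RNA. Columns were matched to retinas by name, and 0 value columns were left out. The authors had excluded 1 Sorbinil replicate after a principal component analysis.

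Tests were run with edgeR 4.0.16 under R 4.3.3 (filterByExpr with a minimum count of 10, TMM scaling, glmQLFit and glmQLFTest, Benjamini-Hochberg adjustment over 14992 genes). CPM are counts over the TMM-normalized library size, and log2 ratios per retina used log2(CPM + 0.01). Single values were compared by an exact two-sided permutation test over all 10 groupings of the retinas, which cannot go below 0.1. Intervals are 95% and use the test's degrees of freedom. DESeq2 1.42.0 was an alternative. No pair of retinas was a repeat of 1 library (smallest chi-square over its degrees of freedom, 25.6). The fitting was tested on simulated data. Each retina was the injured eye of a separate mouse, per the paper.

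Named were the 9 genes, the called genes of each axon list with otherwise the 3 smallest p-values, and the 2 genes nearest to each member. Some genes that this rule names are not reported here. The members and lists were chosen with earlier results of these data known. Gene positions and exon lengths came from GENCODE vM39 on GRCm39, promoters from RefSeq on GRCm38.p6. Alternatives were other filters, scalings, tests and thresholds, the replicate number as a block, and leaving out each retina.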

Additional observations from a re-analysis of the deposited data

How the results depend on the processing

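Scaling to the RGC list was chosen after seeing the data. Over the alternatives with all 5 retinas, 0 of the 9 genes were called in either direction, also at an adjusted p-value under 0.05, and 0 had an unadjusted p-value under 0.05, although the DESeq2 Wald test and the likelihood ratio test called 21 and 14 of all genes at an adjusted p-value under 0.05. Leaving out 1 retina at a time gave 0 to 4 genes called lower and 0 to 6 with an unadjusted p-value under 0.05. The upper ends came without Sorbinil replicate 3, where the remaining Sorbinil retina is assumed to vary like the DMSO retinas. Among all genes tested, calls and unadjusted p-values under 0.05 also became far more frequent in that fit. Its counts are therefore not a result particular to the 9 genes. Of the 9 genes, those called in that fit were Ecel1, Sprr1a, Gap43 and Stmn2. The median log2 fold change of the 9 genes, -0.31, ran from -0.95 without Sorbinil replicate 3 to -0.041 without Sorbinil replicate 1. Scaled to the RGC list it was 0.30, with reversed signs for Atf3 (0.54), Jun (0.46), Sox11 (0.30), Gap43 (0.086), Stmn2 (0.12) and Tubb3 (0.37), a scaling that sets the lower RGC list of Sorbinil replicate 1 level. Jun turned between -0.48 and 0.090, Sox11 between -0.95 and 0.21, and Klf6 between -0.086 and 0.14 when 1 retina was left out, and Klf6 was -0.065 with library size only. Of all genes, 257 were called, against 408 with no filter, 148 with at least 10 counts in every retina, 164 without DMSO replicate 1, 2903 without Sorbinil replicate 3 and 2892 when scaled to the RGC list, which also moved the share of higher calls (2824 higher, 68 lower, against 54 and 203). With the replicate number as a block, 203 genes were called in place of 257 and 0 of the 9. Ecel1 was -0.63, Sprr1a -0.08 and Tubb3 -0.32 with the replicate block. Whether same-numbered retinas share more than a number could not be decided. Their deviations correlated at -0.24 and -0.12, but deviations were taken within each group, where those of the Sorbinil pair mirror each other. DMSO replicate 1 with Sorbinil replicate 3, and DMSO replicate 3 with Sorbinil replicate 1, therefore gave the same sizes with opposite sign (0.24 and 0.12). Depth limited Sprr1a most, with 115 counts in its lowest retina.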
